A study of Mus musculus and Homo sapiens with 28 samples.

Results

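Skeletal muscle transcripts were followed across RNA sequencing libraries of Renca tumours, which grew under the skin of mice. The genes were 34 listed by symbol, coding for sarcomere proteins, calcium handling proteins and enzymes that are abundant in striated muscle. All 34 had a row among the 46078 genes of the deposited table, and 30 were among the 15916 genes whose mean over the libraries reached 3, the level at which genes were tested. Actn2, Ckmt2, Myh2 and Tnni1 lay under that level and are given as values only. Renca is a mouse renal carcinoma cell line, and its cells were injected under the skin of the back in Matrigel, a basement membrane gel. VE822, an inhibitor of the checkpoint kinase ATR, was given by mouth at 60 mg/kg on 5 days a week once tumours could be felt. The labels give the tissue as kidney, and they put the 24 tumour libraries, of 28 libraries in the series, into 4 groups: SETD2 KD with VE822 (n = 5), SETD2 KD untreated (n = 6), WT with VE822 (n = 6) and WT untreated (n = 7). The other 4 libraries, of a human cell line, were not used. SETD2 is a histone H3 lysine 36 methyltransferase, and KD is taken as knockdown. How the knockdown was made, the age and strain of the mice and how tumours were cut from the surrounding tissue are details that the sources used here do not state.

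The values are regularised log2 counts (rlog), in which the spread of genes with few reads is shrunk towards their mean, so differences of low genes are understated. Library depth is unknown, and the median over tested genes lay between 9.13 and 9.21 in every library. Genes above 5 numbered 13063 to 13167 in SETD2 KD VE822 and 12906 to 12983 in SETD2 KD untreated. They numbered 13047 to 13381 in WT VE822 and 12948 to 13035 in WT untreated. Every VE822 library thus had more such genes than every untreated one, and whether this bears on the comparisons below was not tested. Setd2 itself did not tell the 2 untreated genotypes apart. It was 10.81 ± 0.07 in the libraries labelled SETD2 KD untreated and 10.83 ± 0.07 in WT untreated, and it was 9.72 ± 0.21 in those labelled SETD2 KD VE822 and 10.03 ± 0.29 in WT VE822 (SD, n as above). Genotype comparisons below therefore compare libraries as labelled. Nothing in the labels says that each library came from its own animal, so p-values measure the spread between these libraries, which may be technical.

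Skeletal muscle fibres contract when myosin heads of the thick filament pull on actin of the thin filament, inside repeating units called sarcomeres. Calcium released from the sarcoplasmic reticulum binds troponin and uncovers the actin filament, and creatine kinase and glycogen breakdown resupply ATP. Fibres are grouped by their myosin heavy chain: slow fibres use Myh7, and fast fibres use Myh2, Myh1 or Myh4, which code for the IIa, IIx and IIb chains. In mice a thin sheet of skeletal muscle, the panniculus carnosus, lies beneath the skin of the trunk, and muscle of the body wall lies below it.

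Skeletal muscle transcripts were high in a few single tumours and near their lowest values in most. Acta1, Ckm and Myh4, the 3 genes chosen to mark skeletal muscle, were far above their own medians in WT VE822 replicates 1 and 4, followed by WT VE822 replicate 2 and WT untreated replicate 4. In bulk tumour RNA, fewer cells of a type and less RNA per cell cannot be told apart, and whether these transcripts came from host muscle or from tumour cells was not tested.

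Acta1 (ENSMUSG00000031972; GRCm38 chromosome 8, 123891769 to 123894751, minus strand) codes for skeletal muscle alpha actin, the thin filament of adult muscle. In Acta1 the SETD2 KD VE822 libraries had 4.68, 4.68, 4.63, 4.44 and 5.21, and the SETD2 KD untreated libraries had 4.46, 4.68, 4.57, 6.87, 5.86 and 5.70. The WT VE822 libraries had 10.02, 8.88, 4.84, 9.41, 4.83 and 4.48, and the WT untreated libraries had 4.46, 5.30, 4.54, 8.20, 4.62, 4.51 and 6.35. WT VE822 replicate 1 stood 5.26 above the median of the 24 libraries, WT VE822 replicates 4 and 2 stood 4.65 and 4.13 above it, and the other WT VE822 libraries lay within the values of the untreated ones. The highest SETD2 KD VE822 library, at 5.21, was exceeded by 3 of the SETD2 KD untreated libraries.

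Ckm (ENSMUSG00000030399; chromosome 7, 19404776 to 19422841, plus strand) codes for the muscle creatine kinase, which regenerates ATP from phosphocreatine. In Ckm the SETD2 KD VE822 libraries had 4.0, 3.82, 3.89, 3.90 and 4.20, and the SETD2 KD untreated libraries had 3.95, 3.87, 3.88, 4.91, 4.14 and 5.02. The WT VE822 libraries had 10.84, 6.89, 4.17, 8.32, 4.43 and 3.94, and the WT untreated libraries had 4.15, 4.28, 3.91, 6.97, 4.40, 4.06 and 4.58. WT VE822 replicate 1 was 6.68 above the median, and WT VE822 replicate 2 was close to WT untreated replicate 4. The remaining WT VE822 libraries overlapped every other group.

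Myh4 (ENSMUSG00000057003; chromosome 11, 67238029 to 67260446, plus strand) codes for the IIb myosin heavy chain, the motor of the fastest mouse fibres. In Myh4 the SETD2 KD VE822 libraries had 3.38, 3.35, 3.43, 3.37 and 3.81, and the SETD2 KD untreated libraries had 3.42, 3.40, 3.41, 3.95, 3.58 and 5.33. The WT VE822 libraries had 10.02, 5.01, 3.63, 8.27, 3.61 and 3.37, and the WT untreated libraries had 3.42, 3.72, 3.39, 7.66, 3.67, 3.39 and 4.48. Here WT untreated replicate 4 came close to WT VE822 replicate 4, and both were above WT VE822 replicate 2. SETD2 KD untreated replicate 6 was the highest library of its group, although replicate 4 of that group was the highest for Acta1.

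**Figure D1:**
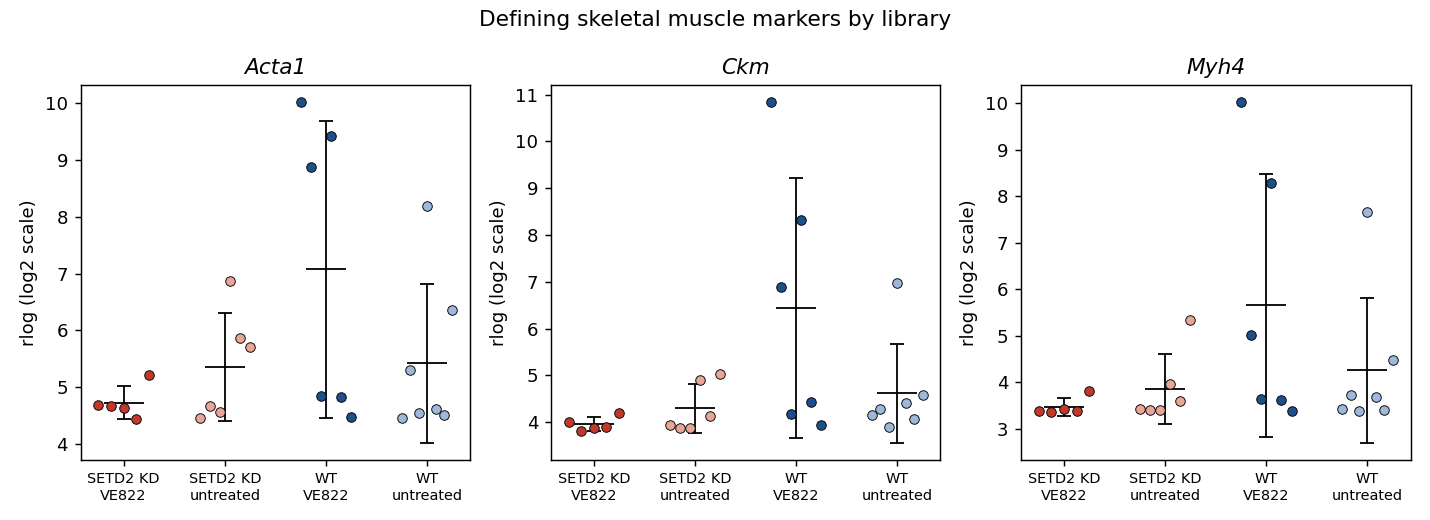
The rlog value (log2 scale, vertical axis) of Acta1, Ckm and Myh4 in each Renca library, with 1 point per library and bars for the group mean ± SD, for SETD2 KD VE822, SETD2 KD untreated, WT VE822 and WT untreated. WT VE822 holds the highest library in each panel, 10.02 for Acta1, 10.84 for Ckm and 10.02 for Myh4, and 3 of its 6 libraries stay near the lowest values.

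The sequence before the start of Ckm, Myh4 and Myh1 is shown as background on these genes. Most of the letters in capitals are ones that muscle transcription factors are known to read. Whether they bear on the differences between tumours was not tested. The stretches come from RefSeq (GRCm38.p6) and are the longest runs within the 250 bases before the start that no annotated exon covers. Each runs 5′ to 3′ on the plus strand, which is the strand of all 3 genes. For Ckm the RefSeq start lies 6318 bases from the start of the gene positions given above, so its stretch falls within those positions. Capitals mark the E-box CAGCTG (read by MyoD family factors), the CArG box (read by serum response factor), the MEF2 site and the TATA motif TATAAA, a general core promoter element, searched on both strands.

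The stretches lie at chr7:19410844-19411024 for Ckm, chr11:67237574-67237811 for Myh4 and chr11:67199852-67200051 for Myh1.
Ckm: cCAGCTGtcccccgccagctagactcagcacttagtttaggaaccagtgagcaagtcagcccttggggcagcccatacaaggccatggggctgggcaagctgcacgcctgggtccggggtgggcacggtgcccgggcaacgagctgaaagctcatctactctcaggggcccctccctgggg
Myh4: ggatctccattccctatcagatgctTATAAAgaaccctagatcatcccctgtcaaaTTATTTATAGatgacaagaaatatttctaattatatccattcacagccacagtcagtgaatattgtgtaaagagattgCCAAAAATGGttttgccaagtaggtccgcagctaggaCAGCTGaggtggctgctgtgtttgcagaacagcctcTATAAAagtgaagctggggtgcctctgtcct
Myh1: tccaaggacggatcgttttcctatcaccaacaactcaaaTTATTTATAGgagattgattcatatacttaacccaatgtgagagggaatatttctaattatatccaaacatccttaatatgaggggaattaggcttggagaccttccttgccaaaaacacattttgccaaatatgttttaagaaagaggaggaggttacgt

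Myh4 holds an E-box, a CArG box and TATA motifs, Ckm holds an E-box alone in the bases shown, and Myh1 and Myh4 share a MEF2 site that overlaps a TATA match on the other strand. Promoters were found for 27 of the 34 genes. None was used for Actn3, Tnnt3, Tnni2, Neb, Tcap, Myoz1 and Cox6a2. As for Ckm, the RefSeq start used lay far from the annotated gene start for Tnni1 (19987 bases), Myom1 (16924) and Mylpf (2718). In the 250 bases before the start, CAGCTG occurred in 13 of 27 (48.1%), against 13% of 32851 RefSeq promoters, and the other E-box searched, CACCTG, occurred in 7 of 27 (25.9%), against 17.2%. The MEF2 site occurred in 5 of 27 (18.5%), against 2.92%, the CArG box in 3 of 27 (11.1%), against 1.47%, and TATAAA in 5 of 27 (18.5%), against 12.4%. A match describes letters and not a bound site.

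Most of the members were high in the same few libraries. The mean rlog over the 34 members was 4.72, 4.67, 4.68, 4.57 and 4.71 in the SETD2 KD VE822 libraries and 4.59, 4.62, 4.56, 5.09, 4.79 and 4.78 in the SETD2 KD untreated libraries. It was 7.44, 6.10, 4.72, 6.45, 4.78 and 4.74 in the WT VE822 libraries and 4.57, 4.63, 4.60, 5.63, 4.58, 4.62 and 4.93 in the WT untreated libraries. WT VE822 replicates 1, 4 and 2 and WT untreated replicate 4 were the 4 highest, and SETD2 KD untreated replicate 4 came next. In WT VE822 replicate 1, 24 of 34 members were over 1 log2 unit above their own median over the libraries, and 18 were over 2. The counts over 1 were 21 in WT VE822 replicate 4, 19 in WT VE822 replicate 2, 6 in SETD2 KD untreated replicate 4, 12 in WT untreated replicate 4 and 3 in WT untreated replicate 7. No other library had more than 2 such members, and the 5 SETD2 KD VE822 libraries had 0. WT VE822 replicate 1 was the highest library for 28 of the 34 members. Among tested genes it was the highest for 24 of 30 members and for 7.9% of all genes. The share of all genes over 1 or over 2 above their median was not counted.

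**Figure D2:**
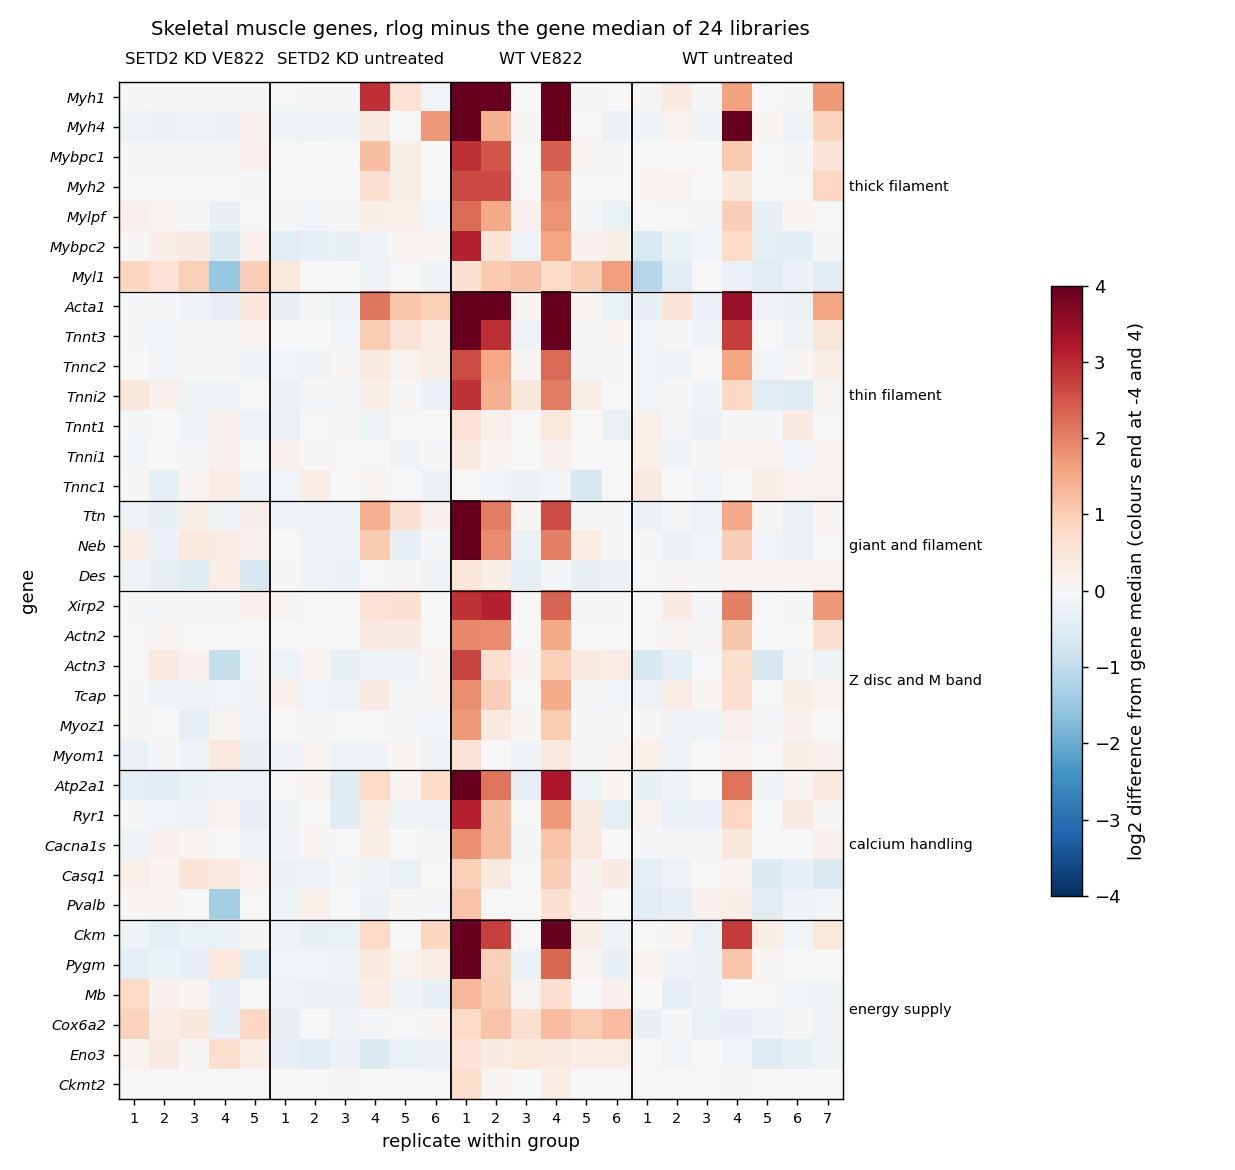
Each cell is the rlog value of a member (rows, ordered by role) in a library (columns, ordered SETD2 KD VE822, SETD2 KD untreated, WT VE822, WT untreated) minus that member's median over the 24 libraries, with colours ending at 4 log2 units either way. WT VE822 replicates 1, 2 and 4 and WT untreated replicate 4 form bright columns across most roles, and no SETD2 KD VE822 library does.

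The range over the 24 libraries, highest minus lowest, had a median of 3.05 log2 units over the 30 tested members, against 0.645 over all 15916 tested genes. The range of Myh1, 7.23, was the largest of all tested genes. Over all 34 members 8 ranges exceeded 5, 15 exceeded 3, 23 exceeded 2 and 30 exceeded 1, while Ckmt2, Tnnt1, Tnni1 and Myom1, 4 in all, had ranges under 1. A member's own level bears on this, since rlog shrinks low genes.

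Among 7 thick filament genes the ranges were 2.56 to 7.23 log2 units, with a median of 3.18. Myh1 (ENSMUSG00000056328; chromosome 11, 67200052 to 67224575, plus strand), which codes for the IIx heavy chain, was 10.77, 9.60 and 7.91 in replicates 1, 2 and 4 of WT VE822, 6.56 in replicate 4 of SETD2 KD untreated, and 5.24 in replicate 4 of WT untreated. Its median over all libraries was 3.63, so SETD2 KD untreated replicate 4 held more of it than WT untreated replicate 4 did. Mylpf, the fast regulatory light chain, was highest in WT VE822 replicate 1, at 7.59, and was 6.34 in WT untreated replicate 4. Mybpc2, the fast myosin binding protein C, was 8.98 in WT VE822 replicate 1, and its slow relative Mybpc1 was 5.70, 5.27 and 5.17 in WT VE822 replicates 1, 2 and 4. The essential light chain gene Myl1 did not follow these libraries and is described with the group comparisons.

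In the thin filament, ranges ran from 0.551 to 6.51 with a median of 2.78 over 7 members, and the split lay between fast and slow isoforms. Troponin senses calcium on the actin filament, and Tnnt3, Tnni2 and Tnnc2 code for its fast subunits. Tnnt3 was 10.04, 6.63 and 8.02 in replicates 1, 2 and 4 of WT VE822 and 6.44 in replicate 4 of WT untreated, with a median over all libraries of 3.68. In WT VE822 replicate 1, Tnnc2 was 2.61 and Tnni2 was 2.88 above the own median. The slow subunit genes moved little in that library: Tnnt1 was 0.59 and Tnni1 0.37 above the own median, and Tnnc1, which the heart also uses, was at -0.03. Tnni1 is a low gene, with a highest value of 3.23.

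Ttn and Neb code for giant proteins of the sarcomere, and with the intermediate filament gene Des they had ranges of 1.12 to 6.78. Ttn was 10.25, 5.80 and 6.36 in the WT VE822 libraries 1, 2 and 4, with 5.27 in WT untreated replicate 4, around a median of 3.76. Neb was 9.28, 5.74 and 5.84 in the same WT VE822 libraries, around a median of 3.84. Des lay between 9.91 and 11.03 in every tumour, and smooth muscle also makes desmin. At the Z disc and the M band, which anchor the 2 filaments, ranges were 0.849 to 3.66 with a median of 2.07 over 6 members. Actn3, the alpha actinin of fast fibres, was 8.74 in WT VE822 replicate 1 and 6.03 at its median. Actn2, an isoform that the heart also uses, was 1.91, 1.88 and 1.55 above its own median in replicates 1, 2 and 4 of WT VE822, where Actn3 was 2.71, 0.67 and 0.95 above its own. Xirp2, an actin binding protein of striated muscle, was 5.95, 6.13 and 5.39 in the WT VE822 libraries 1, 2 and 4, where library 2 was above library 1. Myom1, an M band protein, varied little, being 0.56 above its median in WT VE822 replicate 1, and its exons overlap those of the abundant gene Myl12a on the other strand.

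Calcium handling genes had ranges of 1.57 to 4.98 with a median of 2.49 over 5 members. Atp2a1, the calcium pump of fast fibres, was 9.66, 7.30 and 8.41 in replicates 1, 2 and 4 of WT VE822 and 7.32 in replicate 4 of WT untreated, around a median of 5.16. Ryr1, the calcium release channel, was 3.08 above its median in WT VE822 replicate 1, and Cacna1s, the voltage sensor that opens it, was 1.84 above its own. Pvalb, a calcium buffer of fast fibres, was highest in WT VE822 replicate 1, at 7.43. Among the 6 energy supply genes ranges were 0.715 to 7.02 with a median of 1.61. Pygm, the muscle glycogen phosphorylase, was 9.23, 5.06 and 6.41 in WT VE822 replicates 1, 2 and 4, around a median of 4.12. Mb, the oxygen store myoglobin, was 4.70 in WT VE822 replicate 1 and 3.38 at its median, while Ckmt2, the mitochondrial creatine kinase, had a highest value of 0.77. Eno3 and Cox6a2 belong to the same role but did not follow the high libraries.

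The exons of 18 of the 34 members overlap an annotated gene on the other strand, and whether reads were counted by strand is not stated in the sources used here. The overlapping gene was abundant for Myom1, for Tnnc2 (Ube2c, mean rlog 11.30), for Mb (Apol6, 10.64) and for Atp2a1 (Rabep2, 9.46). For Cox6a2 (Itgad, 0.23) and Casq1 (Gm17224, -0.45) it was not, and Eno3 and Myl1 have none.

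The fast myosin genes did not rise in proportion from tumour to tumour. Myh1, Myh2 and Myh4 lie in a row on chromosome 11 and are close paralogs, so how reads shared between them were assigned is uncertain. In WT VE822 replicate 2, Myh1 was 5.97 above its own median, Myh2 2.63 and Myh4 1.41. In WT untreated replicate 4 the order turned, with Myh4 4.07, Myh1 1.61 and Myh2 0.46 above the own median. WT VE822 replicate 1 was high in both, with Myh1 7.14 and Myh4 6.43 above the own median, and so was WT VE822 replicate 4, with 4.28 for Myh1 and 4.68 for Myh4. Between the libraries of the SETD2 KD untreated group, replicate 4 had Myh1 2.93 and Myh4 0.36 above the own median, while replicate 6 had Myh4 1.74 above it and Myh1 at -0.09. Myh2 (chromosome 11, 67171027 to 67197517, plus strand) stayed a low gene, with 5.22, 5.21 and 4.52 in WT VE822 replicates 1, 2 and 4 and a median of 2.58. The slow heavy chain gene Myh7, listed with the slow fibre genes, was 3.36 in WT VE822 replicate 1 and 2.0 at its median, a low value at which rlog leaves little spread.

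**Figure D3:**
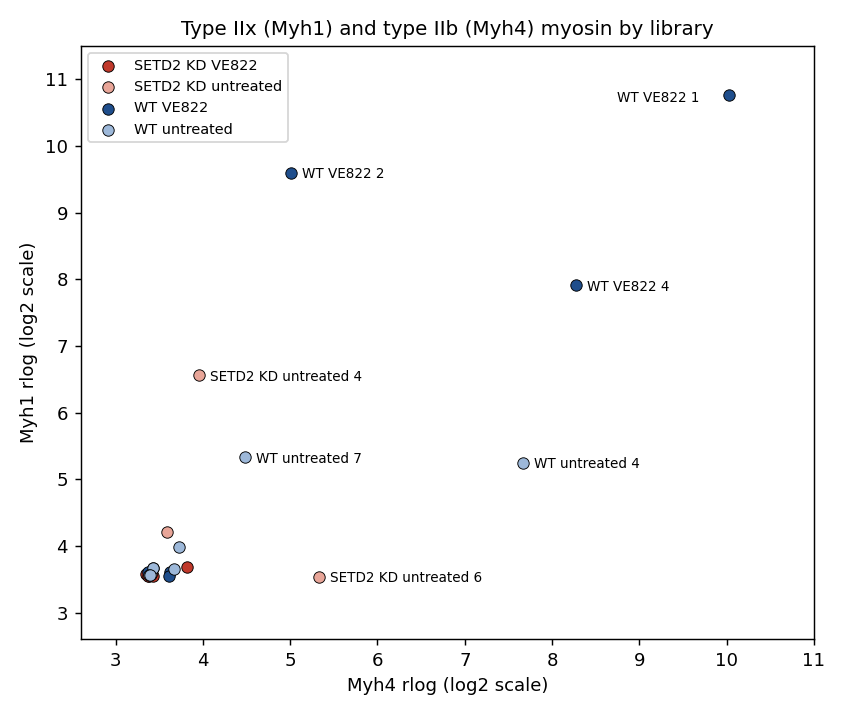
The rlog value of Myh1 (vertical axis) against that of Myh4 (horizontal axis), both on a log2 scale, with 1 point per Renca library coloured by group. WT VE822 replicate 2 has high Myh1 (9.60) with modest Myh4 (5.01), and WT untreated replicate 4 has high Myh4 (7.66) with modest Myh1 (5.24).

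VE822 against no treatment in WT tumours was the comparison in which most members differed. By limma over all tested genes, 13 of 30 members were higher and 1 was lower in WT VE822 than in WT untreated at an adjusted p under 0.05, while 34.7% of all tested genes were called, 17.2% higher and 17.5% lower. Of the 13, Cacna1s and Mybpc1 reached the level for testing only through their WT VE822 values, so their calls are not support for a difference. The median difference was 0.94 over the 30 members and 0.01 over all tested genes, and 28 differences were above 0. At an unadjusted p under 0.05 there were 24 members and 7027 of all tested genes. For 3 members, Cox6a2, Eno3 and Myl1, every WT VE822 library was above every WT untreated library, as in 6.25% of all tested genes, while 7.84% lay wholly lower. The groups overlapped for each of the other 11 called members.

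Among the contractile genes, Tnni2 was 4.69, 5.65 and 7.57 (lowest, median, highest) in WT VE822 and 4.19, 4.58 and 5.51 in WT untreated, and its difference was 1.23 (SE 0.33, limma adjusted p = 0.00545). Neb was 3.57, 4.95 and 9.28 (lowest, median, highest) in WT VE822 and 3.59, 3.74 and 4.81 in WT untreated, a difference of 1.55 (SE 0.57, limma adjusted p = 0.0386). Mybpc1 had 2.75, 4.02 and 5.70 in WT VE822 and 2.76, 2.80 and 3.84 in WT untreated, differing by 1.08 (adjusted p = 0.0409 by limma). In all 3 genes the lowest WT VE822 library lay below the highest WT untreated one. The means of Mybpc1 in SETD2 KD VE822, SETD2 KD untreated and WT untreated were 2.80, 3.02 and 3.01. Mybpc1 reached the level for testing only through WT VE822, so its p-value is not support. Mybpc2 had 5.70, 6.26 and 8.98 in WT VE822 and 5.28, 5.64 and 6.68 in WT untreated, and differed by 1.05 (limma adjusted p = 0.0245). For Actn3 the values were 6.10, 6.56 and 8.74 in WT VE822 and 5.40, 5.86 and 6.74 in WT untreated, with a difference of 1.01 (limma adjusted p = 0.0131). For Mylpf they were 5.10, 6.19 and 7.59 in WT VE822 and 5.03, 5.33 and 6.34 in WT untreated, with a difference of 0.80 (limma adjusted p = 0.0457). The groups overlapped in each of these genes, and WT untreated replicate 4 was the highest library of its group for all 6.

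Outside the filaments, Cacna1s had 2.82, 3.62 and 4.70 in WT VE822 and 2.80, 2.84 and 3.30 in WT untreated, differing by 0.69 (limma adjusted p = 0.0137). Its means in SETD2 KD VE822, SETD2 KD untreated and WT untreated were 2.84, 2.88 and 2.93. It reached the level for testing only through WT VE822, so its p-value is not support. Mb had 3.39, 3.80 and 4.70 in WT VE822 and 3.07, 3.27 and 3.40 in WT untreated, differing by 0.66 (limma adjusted p = 0.00627). Myoz1, a Z disc partner of calcineurin, had 3.83, 4.12 and 5.58 in WT VE822 and 3.72, 3.88 and 4.09 in WT untreated, differing by 0.52 (limma adjusted p = 0.0351). Tnnc1, the slow and cardiac troponin C, was the one member lower with VE822: it had 6.01, 6.53 and 6.63 in WT VE822 and 6.53, 6.79 and 7.02 in WT untreated, a difference of -0.30 (limma adjusted p = 0.0413). Several of the members with the widest ranges did not pass the test, and their standard errors were large. Myh1 differed by 2.36 (SE 0.93, limma adjusted p = 0.0511), Ckm by 1.81 (SE 0.78, 0.0753), Acta1 by 1.66 (SE 0.81, 0.119) and Myh4 by 1.40 (SE 0.86, 0.218). Tnnt3, Ttn, Atp2a1, Pygm, Ryr1, Tnnc2, Xirp2, Tcap, Pvalb, Tnnt1, Myom1 and Des were not called either. A two-sided exact permutation test of the 3 marker genes gave p = 0.175 for Acta1, 0.171 for Ckm and 0.238 for Myh4, where 0.00117 is the smallest value that 6 against 7 libraries allow; over the 12 such tests made, adjusted p-values ran from 0.260 to 0.934.

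The count of called members in WT tumours changed when single libraries were left out. It was 8 members without WT VE822 replicate 4, 9 without WT VE822 replicate 1 and 9 without WT untreated replicate 5, and it was 24 without WT VE822 replicate 6, 22 without WT VE822 replicate 3 and 22 without WT untreated replicate 4. With the 4 libraries of highest member mean left out, a choice made after seeing the data, 4 members were called in this comparison and Acta1, Ckm, Myh4, Mybpc1 and Mylpf had differences of -0.24, -0.05, -0.14, -0.07 and -0.0008. Leaving those libraries out takes away 3 of the 6 WT VE822 libraries and 1 of the 7 WT untreated ones. The share of all tested genes called under the same setting is not given beside these counts or those below. They are therefore not read as particular to the members.

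In the tumours labelled SETD2 KD, 2 of 30 members, Eno3 and Cox6a2, rose with VE822 and 0 fell, while limma called 22.2% of all tested genes, 10.6% higher and 11.6% lower. The median difference over the members was -0.06, with 12 differences above 0 and 18 below, and 3 members and 5399 of all tested genes had an unadjusted p under 0.05. The count was 4 without SETD2 KD VE822 replicate 4, and it was 1, with Cox6a2 no longer called, without SETD2 KD VE822 replicate 1 or 5 or SETD2 KD untreated replicate 1. Acta1 differed by -0.63 (SE 0.89, limma adjusted p = 0.665), Ckm by -0.34 (SE 0.85, 0.823) and Myh4 by -0.38 (SE 0.94, 0.818). These SEs rest on 1 spread per gene shared by all 4 groups, though the spread was uneven. The SD of the member mean was 0.06 in SETD2 KD VE822 and 0.20 in SETD2 KD untreated, against 1.14 in WT VE822 and 0.39 in WT untreated. With the 4 libraries of highest member mean left out, all labelled WT, these differences stayed the same. Their limma adjusted p-values were then 0.256, 0.225 and 0.342. The WT and the SETD2 KD comparison share no library, but both take their spread from the same fit of all 24 libraries. Whether they differ needs its own test. By the limma interaction, the SETD2 KD effect minus the WT effect, 0 members and 0% of all genes were called, with 9 members and 1452 genes at an unadjusted p under 0.05. Its median over the members was -0.93 and the lowest adjusted p was 0.424.

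Between the VE822 groups, 29 of 30 members had a lower mean in SETD2 KD VE822 than in WT VE822, with a median difference of -0.93. Limma called 0 members and 0.0126% of all tested genes, and 24 members and 2031 genes had an unadjusted p under 0.05. The lowest adjusted p of a member was 0.144. In Ckm the difference was -2.47 (SE 0.85), with an exact permutation p of 0.0216 before and 0.260 after adjustment over the 12 tests. The mean over all members differed by -1.03 (SE 0.47) between these groups as a description, and by -0.07 with the 4 highest libraries left out. Between the untreated groups, SETD2 KD untreated against WT untreated, limma called 0 members and 0% of all genes, and 0 members and 512 genes had an unadjusted p under 0.05. The sign for Acta1, -0.07 (SE 0.81), turned to 0.40 without WT untreated replicate 4. Each group enters 2 of the 4 pairwise comparisons, so these are not independent of one another.

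**Figure D4:**
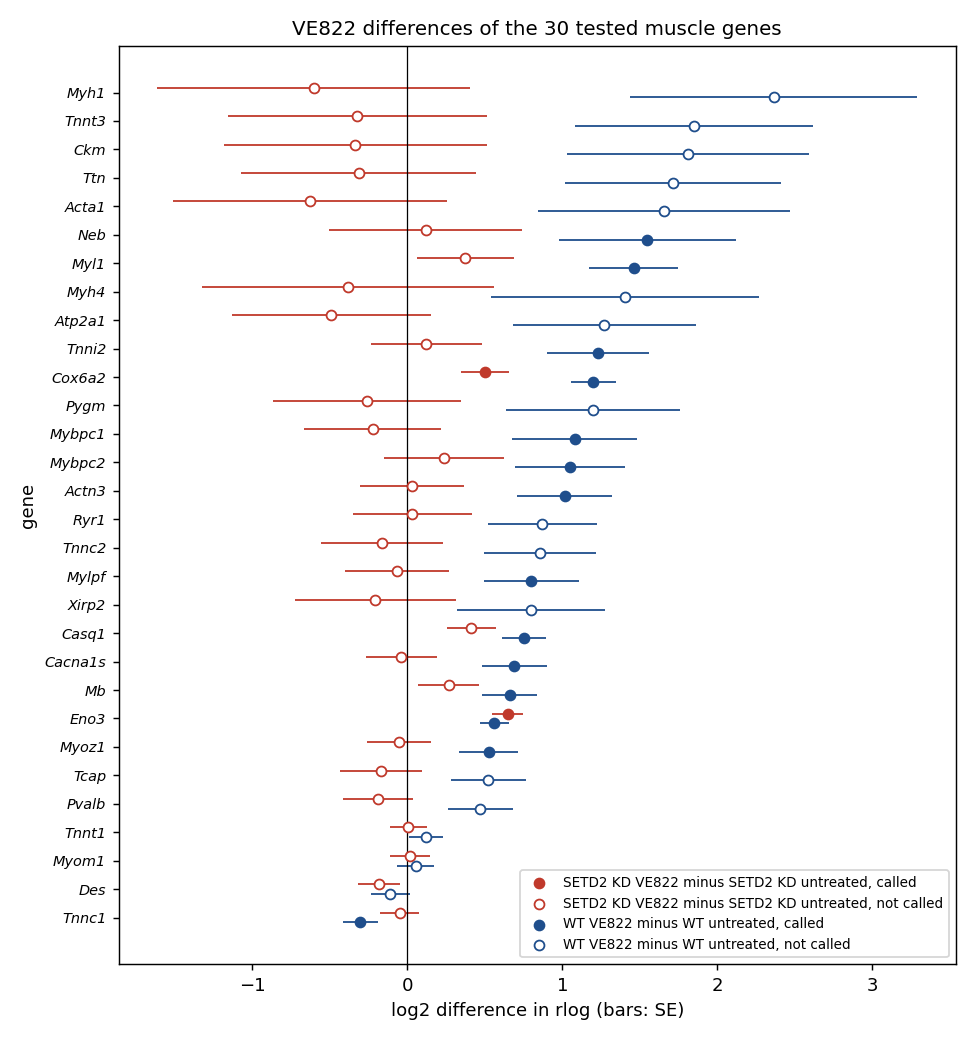
The limma log2 difference with its SE for the 30 tested members, VE822 minus untreated, in SETD2 KD tumours and in WT tumours, with filled points at an adjusted p under 0.05. In WT tumours 28 of 30 differences are above 0 and 14 are filled, and in SETD2 KD tumours 12 are above 0 and 2 are filled.

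Cox6a2, Eno3, Myl1 and Casq1 were higher in most WT VE822 tumours, and not in the 4 libraries of highest member mean alone. Cox6a2 (ENSMUSG00000030785; chromosome 7, 128205435 to 128206387, minus strand) codes for a striated muscle subunit of cytochrome c oxidase. Its values were 6.80, 6.19, 6.34, 5.57 and 6.71 in SETD2 KD VE822 and 5.60, 5.92, 5.76, 5.84, 5.86 and 5.96 in SETD2 KD untreated. They were 6.68, 7.04, 6.52, 7.12, 6.92 and 7.13 in WT VE822 and 5.58, 5.82, 5.64, 5.57, 5.74, 5.81 and 5.77 in WT untreated. The WT groups did not overlap, and in the SETD2 KD groups only VE822 replicate 4 lay below untreated libraries. Cox6a2 rose by 0.50 in SETD2 KD tumours (SE 0.16, limma adjusted p = 0.0228) and by 1.20 in WT tumours (SE 0.14, limma adjusted p = 1.32e-06). In SETD2 KD tumours it was called under 28 of 33 alternatives, with a highest limma adjusted p of 0.108.

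Eno3 (ENSMUSG00000060600; chromosome 11, 70657202 to 70662513, plus strand) codes for the muscle form of the glycolytic enzyme enolase. Its values were 10.41, 10.61, 10.30, 10.97 and 10.55 in SETD2 KD VE822 and 9.92, 9.84, 10.03, 9.70, 10.01 and 10.03 in SETD2 KD untreated. In WT VE822 they were 10.84, 10.58, 10.69, 10.66, 10.56 and 10.55, and in WT untreated 10.23, 10.16, 10.29, 10.15, 9.75, 9.98 and 10.05. In both genotypes every VE822 library was above every untreated one, as in 5.3% of all tested genes in SETD2 KD tumours, where 5.95% lay wholly lower, and in 6.25% in WT tumours, and each group spanned less than 1 log2 unit. Eno3 rose by 0.65 in SETD2 KD tumours (SE 0.10, limma adjusted p = 6.47e-05) and by 0.56 in WT tumours (SE 0.09, limma adjusted p = 6.37e-05).

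Myl1 (ENSMUSG00000061816; chromosome 1, 66924295 to 66945404, minus strand), the fast essential light chain, had 9.35, 9.09, 9.45, 6.99 and 9.48 in SETD2 KD VE822 and 8.91, 8.48, 8.48, 8.28, 8.49 and 8.34 in SETD2 KD untreated. It had 9.12, 9.56, 9.67, 9.25, 9.48 and 10.17 in WT VE822 and 7.37, 8.04, 8.51, 8.27, 8.06, 8.27 and 8.06 in WT untreated. WT VE822 replicate 6, where Acta1 was only 4.48, held the highest value, and SETD2 KD VE822 replicate 4 held the lowest of all. In SETD2 KD tumours Myl1 differed by 0.37 (adjusted p = 0.430), and by 0.84 without SETD2 KD VE822 replicate 4, where it passed the test (limma adjusted p = 0.00117). That library was also the highest of the 24 for 15.7% of all tested genes, and its part in the result was not tested further. In WT tumours Myl1 rose by 1.46 (SE 0.29, limma adjusted p = 0.000398).

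Casq1 (ENSMUSG00000007122; chromosome 1, 172209894 to 172219868, minus strand), which stores calcium in the reticulum of fast fibres, had 7.43, 7.31, 7.75, 7.61 and 7.38 in SETD2 KD VE822 and 7.01, 7.03, 7.17, 7.07, 6.98 and 7.25 in SETD2 KD untreated. It had 8.18, 7.63, 7.21, 8.21, 7.41 and 7.55 in WT VE822 and 6.83, 7.04, 7.22, 7.34, 6.65, 6.90 and 6.65 in WT untreated, so WT VE822 replicates 1 and 4 were high here as well. In SETD2 KD tumours Casq1 differed by 0.41 (limma adjusted p = 0.0611), and in WT tumours it rose by 0.75 (SE 0.14, limma adjusted p = 0.000308). With the 4 libraries of highest member mean left out, the differences in WT tumours were 1.72 for Myl1, 1.13 for Cox6a2, 0.52 for Eno3 and 0.51 for Casq1. All 4 passed (limma adjusted p = 0.00381, 0.000468, 0.00552 and 0.00714 in that order), and these were the highest adjusted p-values among the 33 alternatives tried, all of which called these genes. In SETD2 KD tumours Casq1 was called under 6 of the 33 alternatives.

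**Figure D5:**
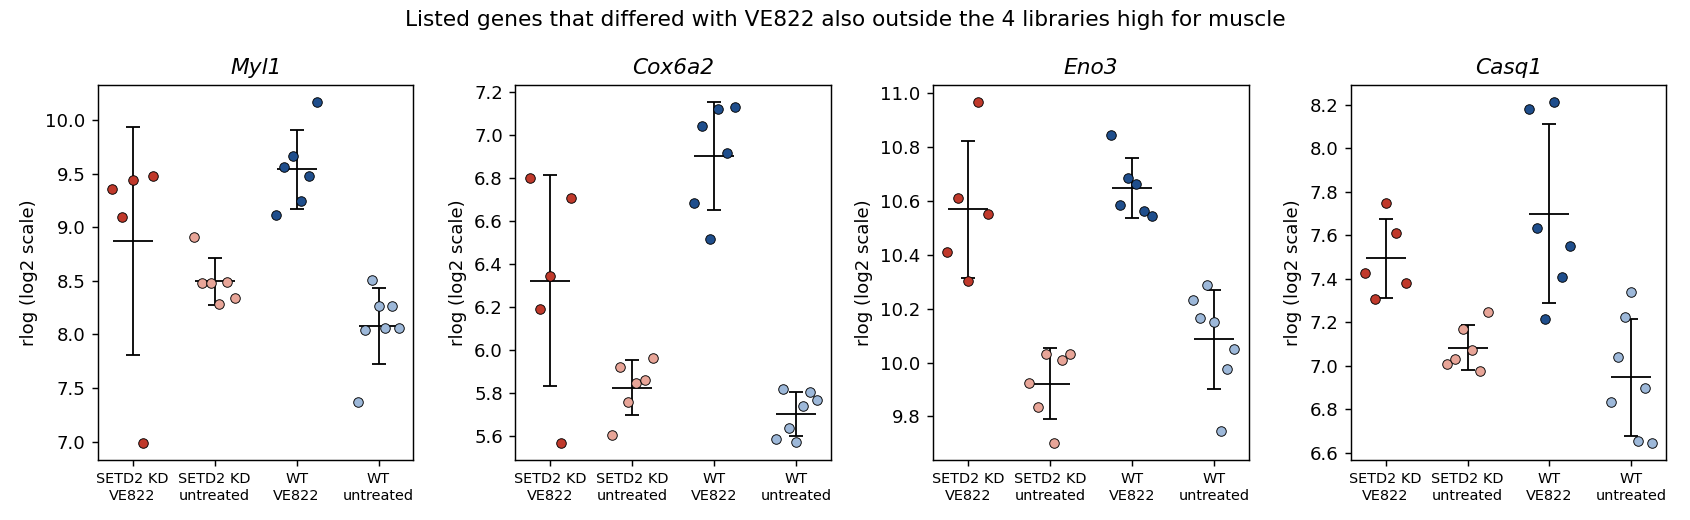
The rlog value (log2 scale, vertical axis) of Myl1, Cox6a2, Eno3 and Casq1 in each Renca library, with 1 point per library and bars for the group mean ± SD, for SETD2 KD VE822, SETD2 KD untreated, WT VE822 and WT untreated. In Eno3 both VE822 groups lie wholly above their untreated groups, and in Cox6a2 and Myl1 the WT VE822 group does.

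Outside the members, genes that followed the same libraries were sought by their Pearson correlation with the mean over the tested members across the 24 libraries, as a measure of likeness only. Among the closest 15 were Cmya5, Klhl41, Ldb3, Flnc, Pdlim3, Chrd, H19, Pgam2, Fhl1, Pfn2, Lgr5, Nrap, Ppp1r12c and Gm8818, with r between 0.78 and 0.95. Because a few libraries carry the pattern, r over the other 20 libraries was much lower, for example 0.72 for Cmya5, 0.43 for Klhl41 and -0.02 for Ldb3. Cmya5, a large Z disc protein, was 9.21 in WT VE822 replicate 1, 5.75 in WT VE822 replicate 4, 4.86 in WT VE822 replicate 2 and 3.38 at its median. Klhl41 and Nrap take part in myofibril assembly, and Ldb3, Pdlim3 and Flnc sit at the Z disc. Pgam2 is the muscle phosphoglycerate mutase, and H19 is an imprinted RNA that muscle keeps in adult life.

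Within groups, a limma slope on the member mean was called for 45 of 15886 genes that are not members (0.283%), 36 of them positive. The slopes, in log2 units per unit of the member mean, were 1.68 for Cmya5 (limma adjusted p = 1.64e-08), 0.67 for Klhl41 (6.04e-08), 0.66 for Ldb3 (4.56e-07), 0.69 for Nrap (1.15e-05) and 1.09 for H19 (0.00460). The count was 137 without SETD2 KD VE822 replicate 4 and 120 without WT VE822 replicate 4, and it was 22, 26 and 29 without WT VE822 replicate 1, WT VE822 replicate 3 and WT untreated replicate 7 in that order. It was 0 with the 4 libraries of highest member mean left out.

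Other genes of muscle, from lists written with earlier results of these data known, were counted for comparison. For these lists and those in the paragraphs that follow, the shares over all tested genes stand beside the counts. With VE822, limma called 10.6% higher and 11.6% lower in SETD2 KD tumours, and 17.2% higher and 17.5% lower in WT tumours. A count near these shares is not particular to a list. The 14 fast fibre genes are all members: of 13 tested, 1 was higher and 0 lower with VE822 in SETD2 KD tumours, and 7 were higher and 0 lower in WT tumours. Of 11 slow fibre genes, 4 of them members, 6 were tested, with 1 higher and 0 lower with VE822 in SETD2 KD tumours and 2 higher and 1 lower in WT tumours. The mean over the fast list was 8.55, 7.55 and 7.03 in WT VE822 replicates 1, 4 and 2, 6.56 in WT untreated replicate 4 and 5.11 to 5.78 in the other 20 libraries. The mean over the slow list was 5.29, 5.01 and 4.97 in WT VE822 replicates 1, 4 and 2, 4.74 in WT untreated replicate 4 and 4.54 to 4.73 elsewhere. Myoz2, the Z disc protein of slow fibres, was highest in WT VE822 replicate 3, at 5.81, a library low in Acta1.

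Of 26 further sarcomere and Z disc genes 13 were tested, with 2 higher and 0 lower with VE822 in SETD2 KD tumours and 5 higher and 0 lower in WT tumours. Myom2, an M band protein, rose by 2.56 in SETD2 KD tumours (SE 0.35, limma adjusted p = 1.88e-05) and by 2.72 in WT tumours (SE 0.32, limma adjusted p = 1.32e-06), and its highest library was SETD2 KD VE822 replicate 5, at 8.86. Like Eno3, it was higher with VE822 in both genotypes. Tpm2, a tropomyosin that smooth muscle also makes, was highest in WT VE822 replicate 4, at 9.47. Of 18 excitation and calcium genes 8 were tested, with 0 higher and 1 lower in SETD2 KD tumours and 1 higher and 0 lower in WT tumours. Jph2, which ties the reticulum to the cell membrane, had the widest range, with 7.37 in WT VE822 replicate 4 and 5.98 at its median. Of 18 metabolism genes 11 were tested, with 0 higher and 2 lower in SETD2 KD tumours and 3 higher and 2 lower in WT tumours, and Pgam2 had the widest range, reaching 5.39 in WT VE822 replicate 1.

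Most genes of muscle precursors were too low to be tested. Pax3 and Myf5 were listed at 0 in every library, and Pax7, Myod1 and Myog had means of -2.21, -1.85 and -0.76, at which rlog gives almost no spread. Of the 14 genes of that list 2 were tested, and 1 was higher and 0 lower with VE822 in each genotype. Of 10 neuromuscular junction genes 7 were tested, with 3 higher and 2 lower in each genotype. Chrna1, the alpha subunit of the muscle acetylcholine receptor, fell by 1.02 in SETD2 KD tumours (limma adjusted p = 0.0126) and by 1.08 in WT tumours (limma adjusted p = 0.00285). Of 11 atrophy genes, all tested, 2 were higher and 1 lower in SETD2 KD tumours, and 2 were higher and 3 lower in WT tumours. Trim63, the ubiquitin ligase MuRF1, rose by 1.43 in SETD2 KD tumours (limma adjusted p = 2.32e-05) and by 1.56 in WT tumours (limma adjusted p = 1.28e-06).

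Markers of other tissues that lie near a tumour under the skin were set beside the member mean. Their called counts stand against 10.6% of all tested genes higher and 11.6% lower with VE822 in SETD2 KD tumours. In WT tumours the shares were 17.2% and 17.5%. The 10 fibroblast genes, all tested, had a list mean of 8.92 to 10.25 in SETD2 KD VE822, 8.51 to 9.92 in SETD2 KD untreated, 9.32 to 11.86 in WT VE822 and 8.51 to 10.45 in WT untreated. WT VE822 replicates 4, 2 and 1 had 11.86, 10.73 and 10.47, the 3 highest of the 24, and WT untreated replicate 4 had 9.68. With VE822, 0 fibroblast genes were higher and 1 lower in SETD2 KD tumours, and 5 were higher and 1 lower in WT tumours. These 3 were also the WT VE822 libraries of highest member mean, in another order. WT untreated replicate 1 and WT VE822 replicate 5, both low for muscle, came close at 10.45 and 10.29. Within groups, the limma slope on the member mean was called for 0 of the 10 fibroblast genes. An unadjusted p under 0.05 was found for 4 of the 10, and for 2053 of all 15886 genes that are not members. The part of this list in the result was not tested further. The 10 tendon and fascia genes, 6 tested, had 4.13 to 4.57 in SETD2 KD VE822, 4.02 to 4.67 in SETD2 KD untreated, 4.32 to 5.11 in WT VE822 and 4.10 to 4.65 in WT untreated. Of these, 0 were higher and 1 lower in SETD2 KD tumours, and 1 was higher and 1 lower in WT tumours. Thbs4, a matrix protein of tendon and muscle, was highest in WT VE822 replicate 4, at 8.40, and had a slope of 1.19 on the member mean (limma adjusted p = 0.0316).

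The adipocyte list, 11 genes with 9 tested, did not follow the same libraries: its highest means were 7.0 in SETD2 KD VE822 replicate 2, 6.72 in WT VE822 replicate 4, 6.89 in WT untreated replicate 1 and 6.75 in WT untreated replicate 3, while WT VE822 replicates 1 and 2 both had 4.78. It had 1 gene higher and 0 lower with VE822 in SETD2 KD tumours, and 1 higher and 1 lower in WT tumours. The smooth muscle list, 10 genes all tested, was highest in SETD2 KD VE822 replicate 4 (8.97) and WT VE822 replicate 4 (9.17), and limma called 0 of its genes in either genotype, with 0 in SETD2 KD tumours and 1 in WT tumours at an unadjusted p under 0.05. In WT VE822 replicate 1, the highest for skeletal muscle, it was 8.02, close to its median of 8.07 over the 24 libraries. Of 12 keratinocyte and hair follicle genes 2 were tested, 3 (Krt71, Dsg1a and Flg) were at 0 throughout, and with VE822 0 were called in SETD2 KD tumours (0 at an unadjusted p under 0.05) and 1 was higher in WT tumours. Cardiac genes, 10 with 5 tested, gave 1 higher and 0 lower in each genotype, and their list mean was 2.46 to 2.81 in SETD2 KD VE822, 2.33 to 2.39 in SETD2 KD untreated, 2.46 to 2.72 in WT VE822 and 2.33 to 2.54 in WT untreated. Of the Schwann cell list 7 of 10 were tested, with 1 higher and 1 lower in SETD2 KD tumours and 2 higher and 2 lower in WT tumours, and of 8 endothelial genes, all tested, 1 was higher and 0 lower in each genotype. The 10 renal epithelial genes, of a kind that a renal carcinoma line can make, had a list mean of 9.89 to 10.21 in SETD2 KD VE822, 10.26 to 10.32 in SETD2 KD untreated, 9.94 to 10.20 in WT VE822 and 10.14 to 10.34 in WT untreated. With VE822, 2 were higher and 6 lower in SETD2 KD tumours, and 1 was higher and 6 lower in WT tumours. Of all tested genes, 10.6% were called higher and 11.6% lower in SETD2 KD tumours, and 17.2% higher and 17.5% lower in WT tumours.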

How the data were processed

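RNA sequencing gave 24 Renca tumour libraries. The deposited values are on a log2 scale: the deposited table is named by the authors as regularised logs (rlog) of counts. Per the submitters' processing notes FastQC, TopHat, HTSeq, DESeq2 and the build GRCm38 were used, with no versions. Depth is unknown, and counts could not be recovered. Names and positions came from GENCODE vM21, which matched 97.97% of the IDs. Groups came from the labels.

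Genes reaching a mean of 3 were fitted with limma 3.58.1 (R 4.3.3) as 4 group means with a mean-variance trend and no covariate, and p-values were adjusted by Benjamini-Hochberg over all 15916 genes and called under 0.05. A second fit added the mean over the tested members as a slope within groups. Acta1, Ckm and Myh4 were also tested by two-sided exact permutation. The fit was tested on simulated data. Every member was accounted for, with group values or values in every library for those called. Outside the set, the 15 genes with the highest correlation with the member mean were named, and up to 4 genes of each list by their range, except 1 gene that is not reported here. The members and lists were chosen with earlier results of these data known. Alternatives covered the filter, trend, weights, scaling, samples in the fit and each library left out.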

Additional observations from a re-analysis of the deposited data

Results flagged for a closer look

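Gaps were looked for in 140 combinations of a gene, or the member mean, and a group. The combinations share the same 24 libraries, so they are not independent, and the share over all tested genes was not computed. In 29 of them (20.7%) a library's gap to the next was large for the group's range, at a cut-off set for about 1 in 20. Of these, 12 were WT untreated replicate 4 at the top of its group: Ckm at 6.97, Myh4 at 7.66, Mylpf at 6.34, Tnnt3 at 6.44, Tnnc2 at 4.54, Ttn at 5.27, Neb at 4.81, Atp2a1 at 7.32, Pygm at 5.22, Mybpc2 at 6.68, the low gene Ckmt2 at 0.11 and the mean over members at 5.63.

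SETD2 KD untreated replicate 4 stood above its group for Mb (3.67), Myh1 (6.56), Neb (4.88) and Mybpc1 (4.01), and replicate 6 of that group did for Myh4 (5.33). In the same group replicate 1 was high for Myl1 (8.91) and replicate 3 for Ckmt2 (0.109). SETD2 KD VE822 replicate 5 was above its group for Myh4 (3.81), Mybpc1 (3.0) and Xirp2 (3.26). SETD2 KD VE822 replicate 4 was below its group for Myl1 (6.99) and Pvalb (4.95) and above it for Pygm (4.55), and replicate 2 was above it for Actn2 (2.64). In WT VE822, replicate 1 was above the others for Actn3 (8.74) and replicate 5 below them for Tnnc1 (6.01). WT untreated replicate 1 was below its group for Myl1 (7.37).

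For 0 of the 34 members did every SETD2 KD library move with VE822 in the opposite direction to every WT library.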

How the results depend on the processing

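In WT tumours the 14 members called with VE822 became 8 with a filter at a mean rlog of 5 (only 14 members were then tested, and all 8 of them that were called before stayed called), 9 with no filter, 9 under quantile normalisation, 8 with only the 2 groups in the fit and 4 with the 4 libraries of highest member mean left out, and 8 to 24 with 1 library left out. Cox6a2, Eno3, Myl1 and Casq1 were called under all 33 alternatives, and Mylpf under 10. In SETD2 KD tumours the 2 called members became 5 with library weights, 1 under quantile normalisation and 1 to 4 with 1 library left out. With only the 2 SETD2 KD groups in the fit the count stayed at 2, but only 1 of them was called before, and Cox6a2 was not called. These counts of called members are given without the share of all tested genes called under the same settings. The 45 genes that followed the member mean became 5 with the filter at 5, 29 with library weights, 0 with the 4 libraries left out and 22 to 137 with 1 left out.

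Leaving out the 4 libraries turned the WT differences of Acta1 to -0.24, Ckm to -0.0483, Myh4 to -0.144, Mylpf to -0.0008 and Mybpc1 to -0.0727, and that of Acta1 between SETD2 KD VE822 and WT VE822 to 0.0114. Between the untreated groups, Acta1 turned to 0.397, Ckm to 0.0659 and Myh4 to 0.171 both without those libraries and without WT untreated replicate 4 alone. With 1 library left out these ran from -0.37 to 0.397 for Acta1, -0.47 to 0.0659 for Ckm and -0.69 to 0.171 for Myh4. The member mean differed by -0.23 as a median over members in SETD2 KD tumours, and by -0.0733 between the VE822 groups without the 4 libraries. With 1 library left out its difference ran from -0.10 to 0.005 in SETD2 KD tumours, -1.23 to -0.68 between the VE822 groups, -0.13 to 0.08 between the untreated groups and 0.56 to 1.11 in WT tumours. The cause of these changes was not tested, apart from the fewer libraries or genes that an alternative leaves. Depth is unknown, so no limit of detection is given. No paired analysis was possible because the labels of the Renca libraries carry a separate number for each library and none shared between groups.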
